A study of Homo sapiens with 2 samples.

Results

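The genes described here are the fibroblast growth factor (FGF) ligands, their receptors and the transcripts through which ERK signalling limits itself. They were chosen by name as 39 genes. These were 18 secreted ligands, 4 intracellular FGF homologous factors, 4 receptors, 7 Sprouty and SPRED genes, 3 dual-specificity phosphatases and 3 ETS factors. Of the 39, 34 are among the 18518 genes listed in 1 or both of the deposited tables. The study sequenced RNA of wild-type H1, a long-established line of human embryonic stem cells, and of H1 whose genotype is labelled MEIS1-/-, with 1 library each. Both were given activin A (40 ng/ml) and BMP4 (50 ng/ml) for the first 2 days, followed by VEGF (40 ng/ml) and bFGF (50 ng/ml), and both were sampled at day 3 of differentiation towards blood. The labels did not say whether the MEIS1-/- cells were 1 clone, which part of MEIS1 was removed, or whether the libraries came from separate cultures. bFGF is the protein that FGF2 encodes, so cells of both genotypes had an FGF ligand in the medium at collection.

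Most secreted FGFs bind receptor tyrosine kinases on the cell surface together with heparan sulfate. The activated receptor passes the signal through adaptors and RAS to the kinases RAF, MEK and ERK. ERK in turn raises the transcripts of its own inhibitors: Sprouty and SPRED proteins act on the path to RAF, and dual-specificity phosphatases remove phosphate from ERK. The ETS factors ETV1, ETV4 and ETV5 are also FGF-induced and are often read as markers of the pathway. In the embryo FGF signalling is needed for cells to leave the primitive streak and form mesoderm, from which blood and endothelium arise.

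The wild-type library held 5202875 estimated counts over 17562 genes and the library labelled deleted 5296440 over 17696. The 39 genes took 0.239% and 0.192% of them. MEIS1 itself had 89 and 68 counts, and the counting interval of its level in the second library, 0.543 to 1.05 of wild type, included no difference, so the label could not be checked from it. With 1 library per genotype no test between genotypes was possible, and every ratio compares these 2 libraries. Ratios of single genes are of counts scaled by TMM library sizes, with a pseudocount of 1. Changes in the counts of 1 gene per count of another use neither scaling nor pseudocount. Each carries an exact 95% interval that covers counting error only. Markers of cell state differed between the libraries. Higher and lower here mean a counting interval above or below 1. Of 25 markers compared 10 were higher (40.0%, against 15.4% of all genes compared) and 11 lower (44.0%, against 14.7%). All 3 compared markers of the primitive streak (TBXT, MIXL1, EOMES) were at least 2-fold lower in the library labelled deleted, against 2.95% of all genes. Their list of 5 summed to 79.96 FPKM in wild type and 21.3 in the other, with no marker at 0. All 6 haemato-endothelial markers were higher, summing to 49.5 and 124.53 FPKM, with none at 0. Of 5 pluripotency markers 4 were compared and all 4 were lower, summing to 619.89 and 488.9 FPKM. Mesoderm markers were higher for 4 of 5, with sums of 681.81 and 677.74 FPKM. The fifth, APLNR, had the highest FPKM of the list in wild type and was 1.43-fold lower (1.37 to 1.49), at 267.88 and 186.43 FPKM. Definitive endoderm markers were lower for 2 of 4 (sums 120.62 and 86.38), with none at 0, and the ratios of all 4 were below 1. Of 4 neural markers SOX1 was at 0 in both libraries, and of the 3 compared 1 was lower (sums 140.11 and 123.37). The ratios of all 3 were below 1, but the intervals of NES and PAX6 included it, and OTX2 was the 1 that was lower. NES made up most of both sums (119.39 and 114.45 FPKM), and PAX6 had 10 and 3 counts. In bulk RNA, fewer cells of a type and less RNA per cell cannot be told apart, and the part of these markers in the results below was not tested.

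FGF and ERK feedback transcripts were lower more often than higher in the library labelled deleted. FGF17, FGF12, FGF13 and SPRY4 were lower by at least 1.5-fold, and FGF19 and FGFR2 were higher by that much. Of the 39 genes, 5 were listed in neither library and 6 stayed under 10 counts in both, which left 28 compared. The 39 were chosen with earlier results of these data known, so the shares below describe them and test nothing. An interval below a ratio of 1 was found for 10 of the 28 (35.7%), against 14.7% of 14381 genes compared, and an interval above it for 2 (7.14%), against 15.4%. At least 1.5-fold differences with such an interval were seen for 4 lower (14.3%, against 6.21% of all genes) and 2 higher (7.14%, against 5.75%). At least 2-fold, only FGF17 remained in the lower direction (3.57%, against 2.95%) and 0 genes in the higher (against 2.90%). Counting intervals narrow with depth, so the comparison was repeated on genes that reached 50 counts in either library. Of 23 such members 10 then lay below 1 (43.5%), against 16.7% of 10865 genes, and 2 above it, against 17.4%. In that set 4 members were at least 1.5-fold lower, against 5.40% of genes, 2 were at least 1.5-fold higher, against 4.66%, and 1 was at least 2-fold lower, against 1.57%, with 0 higher, against 1.48%. The median log2 ratio of the 28 was -0.15, and that of all genes compared was 0.0032. The roles differed, against 14.7% below 1 and 15.4% above it over all genes compared. Secreted ligands had 1 of 8 below 1 and 1 above it (12.5% each), and receptors had 1 of 4 on each side (25.0% each). Homologous factors had 2 of 3 below 1 (66.7%) and 0 above it, and the feedback genes 6 of 13 (46.2%) and 0.

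**Figure D1:**
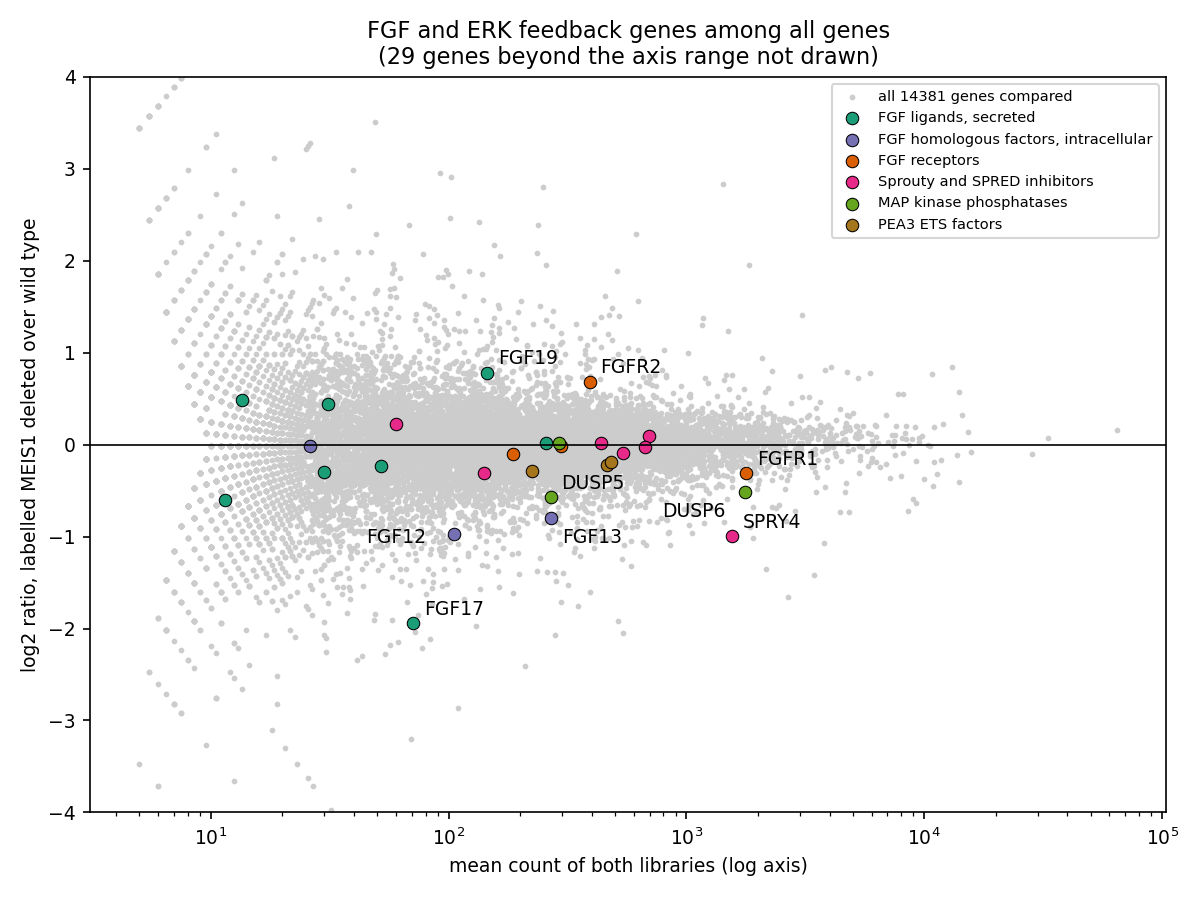
Each point is 1 gene, with the mean count of both libraries on a log axis (x) and the log2 ratio of the library labelled MEIS1 deleted over wild type (y); grey points are the 14381 genes compared, 29 of them beyond the axis range and not drawn, and coloured points the 28 FGF and ERK feedback genes by role. FGF17 lies lowest of the coloured points at -1.94, FGF19 and FGFR2 highest at 0.78 and 0.69, and SPRY4 stands below most genes of like count.

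Among secreted ligands, FGF17 was lower and FGF19 higher in the library labelled deleted, while FGF2 had nearly equal counts. FGF17 (gene 8822, chromosome 8), an FGF8-subfamily ligand of the primitive streak and later of the midbrain, gave 113 wild-type counts against 29 in the other library, or 17.83 and 4.49 FPKM. It was 3.84-fold lower (2.60 to 6.14). The other members of its subfamily were near absent: FGF8, the main FGF of the mouse streak, had 2 and 4 counts, and FGF18 had 5 and 5. FGF17 was therefore the one FGF8-subfamily transcript with more than 10 counts.

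FGF19 (gene 9965, chromosome 11), an endocrine FGF that acts with the co-receptor KLB, went the other way. It had 106 and 185 counts, or 9.48 and 16.25 FPKM, and was 1.72-fold higher (1.35 to 2.21). Its relatives FGF21 and FGF23 had 0 and 0 counts and 1 and 0. KLB itself, named for this role after its values were seen, had 18 and 27 counts, with an interval that included 1. FGF17 counts per FGF19 count went from 1.07 to 0.157, or 6.77-fold lower (4.15 to 11.3), a ratio that no scaling between libraries can alter. The pair was chosen with both values known and in opposite directions, so its ratio adds nothing to the 2 separate values.

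FGF2 (gene 2247, chromosome 4) had 255 and 260 counts, or 7.18 and 7.19 FPKM, and its interval ran from 0.846 to 1.20 of wild type. Its counts were not whole numbers, as can occur where a tool divides reads between genes, and in the GENCODE annotation its exons overlap those of NUDT6 on the other strand. NUDT6 had 33 and 39 counts. FGF1, a ligand of all FGF receptors, had 26 and 36 counts (1.31 and 1.82 FPKM), and FGF5, a gene of the epiblast after implantation, had 56 and 48 (2.01 and 1.70 FPKM). FGF9 had 11 and 16 counts (0.46 and 0.66 FPKM), and its relative FGF16 had 14 and 9 (4.52 and 2.85 FPKM). FGF10, a mesenchymal ligand of FGFR2, had 33 and 27 counts. The intervals of these 5 included 1. The interval of FGF9 ran from 0.627 to 3.43 of wild type, so at such depth a difference was not detectable rather than absent. FGF3 had 0 and 2 counts and FGF7 1 and 0. FGF4, FGF6, FGF20, FGF21 and FGF22 were listed in neither library, and at this depth 0 counts allow a true level of up to 3.

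The make-up of the ligand pool differed at nearly the same total count. All secreted ligands summed to 623 and 621 counts. FGF2 held 40.9% (exact 95% binomial interval 37.0 to 44.9) in wild type, against 41.9% (37.9 to 45.9) in the other library. FGF17 held 18.1% (15.2 to 21.4) and 4.67% (3.15 to 6.64), and FGF19 17.0% (14.2 to 20.2) and 29.8% (26.2 to 33.6). Per length, FGF17 was the highest ligand in wild type, with 32.8% of the summed ligand FPKM, and FGF19 the highest in the library labelled deleted, with 36.03%. The FPKM of FGF10 (10.59 and 8.51) ranked next to these on few counts, and its listed length of 627 bases and that of FGF16 (624) were the shortest of the ligands compared, against 1238 for FGF17 and 6774 for FGF2.

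**Figure D2:**
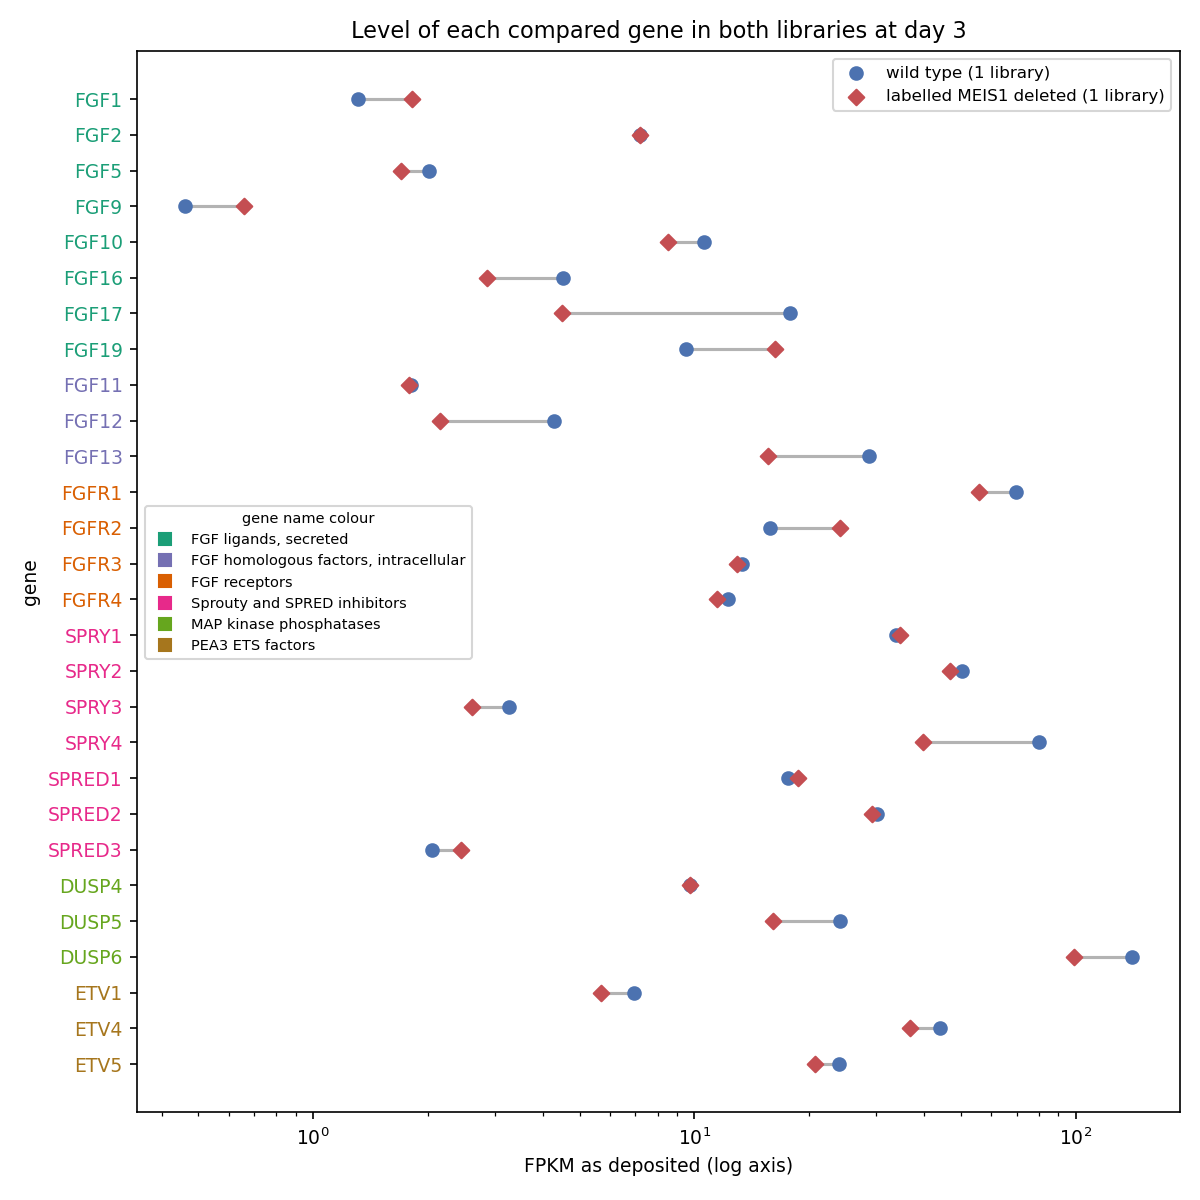
Deposited FPKM (x, log axis) of the 28 compared genes (y, name coloured by role), with circles for the wild-type library, diamonds for the library labelled MEIS1 deleted and a grey line joining them. The longest line is that of FGF17 (17.83 to 4.49), the lines of SPRY4 and FGF12 are next among those with intervals that excluded 1, and FGF2 and DUSP4 fall almost on one spot.

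FGF homologous factors carry the FGF fold but are not secreted and do not act on FGF receptors in the usual way; they bind the tails of voltage-gated sodium channels. FGF13 (gene 2258, chromosome X), which also binds microtubules in neurons, was the most abundant of the 4, with 342 and 199 counts, or 28.66 and 15.57 FPKM. It was 1.73-fold lower (1.45 to 2.08) in the library labelled deleted. FGF12 (gene 2257, chromosome 3) had 139 and 71 counts, or 4.29 and 2.15 FPKM, and was 1.96-fold lower (1.48 to 2.67). FGF11 had 26 counts in each library (1.81 and 1.78 FPKM) and an interval of 0.552 to 1.77 of wild type, and FGF14 had 0 and 1. FGF12 counts per FGF13 count were 0.406 and 0.357, and the change in that ratio, 1.14-fold (0.805 to 1.62), was within counting error. FGF13-AS1, whose exons overlap FGF13 on the other strand, had 5 and 1 counts.

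Of the 4 receptors, FGFR1 was lower and FGFR2 higher in the library labelled deleted. FGFR1 (gene 2260, chromosome 8), the main receptor of pluripotent cells and early mesoderm, had 1968 and 1606 counts, or 69.61 and 55.85 FPKM, and was 1.24-fold lower (1.16 to 1.32). FGFR2 (gene 2263, chromosome 10), whose splice forms serve epithelium and mesenchyme, had 298 and 485 counts, or 15.82 and 24.07 FPKM, and was 1.61-fold higher (1.39 to 1.87). FGFR3, known for its part in bone growth, had 298 and 297 counts (13.32 and 12.96 FPKM). FGFR4, which pairs with KLB as a receptor for FGF19, had 193 and 181 (12.25 and 11.43 FPKM). The intervals of FGFR3 and FGFR4 were 0.837 to 1.16 and 0.754 to 1.14 of wild type, so a change of the size seen for FGFR2 lay outside both.

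FGFR1 stayed the leading receptor in both libraries by a wide margin. It held 71.4% of all receptor counts in wild type (69.7 to 73.1), against 62.5% (60.6 to 64.4) in the other library, while FGFR2 held 10.8% (9.67 to 12.0) and 18.9% (17.4 to 20.4). FGFR3 held 10.8% and 11.6% and FGFR4 held close to the same share in both. Per FGFR1 count there were 0.151 FGFR2 counts in wild type, against 0.302 in the other, a 1.99-fold change (1.70 to 2.35). This pair was also chosen with the values known. Summed over the 4 receptors, the level was 111.0 and 104.31 FPKM. By FPKM the order in wild type was FGFR1, FGFR2, FGFR3 and FGFR4, and the order was the same in the other library, where FGFR2 had moved away from FGFR3 (24.07 against 12.96 FPKM). The tables give 1 value per gene, so the splice forms of FGFR2 could not be separated.

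**Figure D3:**
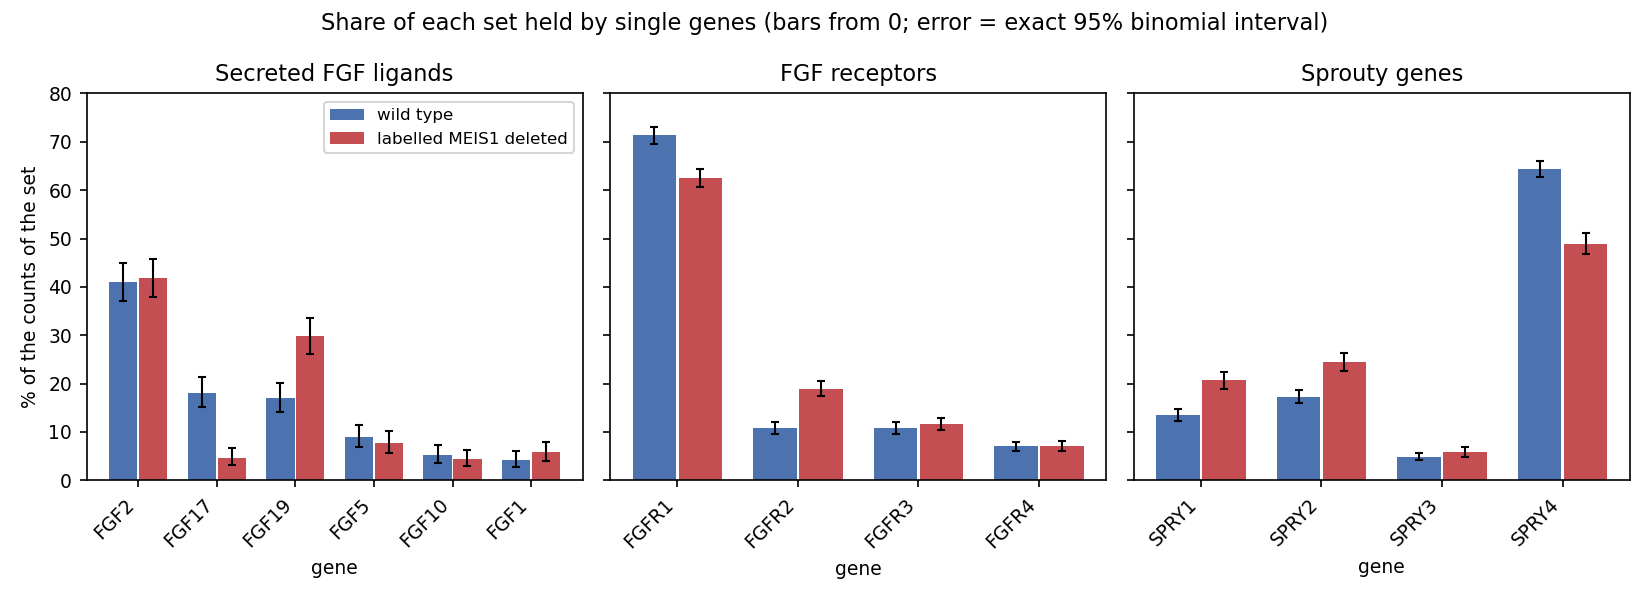
Percentage of the counts of a set (y, from 0) held by single genes (x), in the wild-type library (blue) and the library labelled MEIS1 deleted (red), with exact 95% binomial intervals as error bars; 6 of the secreted ligands are drawn. FGF17 and FGF19 are close in wild type and far apart in the other library, FGFR2 goes from 10.8% to 18.9% of receptor counts, and SPRY4 from 64.5% to 49.0% of Sprouty counts.

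SPRY4, DUSP6 and DUSP5 were lower in the library labelled deleted, the 3 ETS factors were lower by less, and the other 7 feedback genes had intervals that included 1. SPRY4 (gene 81848, chromosome 5), a Sprouty inhibitor of the RAS to ERK path, had 2069 and 1050 counts, or 79.92 and 39.83 FPKM. It was 1.99-fold lower (1.85 to 2.15), just short of 2-fold. DUSP6 (gene 1848, chromosome 12), a cytoplasmic phosphatase specific for ERK and the most abundant of the 39 by FPKM, had 2067 and 1457 counts, or 140.84 and 98.85 FPKM, and was 1.43-fold lower (1.34 to 1.53). DUSP5 (gene 1847, chromosome 10), the nuclear ERK phosphatase, had 319 and 217 counts (24.11 and 16.11 FPKM) and was 1.48-fold lower (1.25 to 1.77).

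The bases before the start sites of SPRY4 and DUSP6 are shown because these are the most abundant feedback transcripts that were lower, and those of SPRY2 because it is a close relative of SPRY4 with an interval that included 1; SPRY2 was added after its values were seen. Each is the 250 bases before a RefSeq start, 5′ to 3′ on the gene's strand (the minus strand in all 3), in build GRCh38.p14, and DUSP5 had no entry in the table. SPRY4 and DUSP6 had 1 start there and SPRY2 had 3, of which the one listed first is shown. Capitals mark matches on either strand to any of 5 motifs: CGGAA (an ETS core), CCGGAA (a stronger ETS form, which contains the first), CAGGAA (ETS with another flank), TGANTCA (AP-1, the FOS and JUN dimer) and TGACAG (MEIS).
SPRY4, chr5:142324248-142324497: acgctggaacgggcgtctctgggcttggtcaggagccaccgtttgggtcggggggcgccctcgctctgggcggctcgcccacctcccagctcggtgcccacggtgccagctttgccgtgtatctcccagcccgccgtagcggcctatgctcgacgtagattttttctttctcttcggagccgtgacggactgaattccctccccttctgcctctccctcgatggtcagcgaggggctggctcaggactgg
DUSP6, chr12:89352502-89352751: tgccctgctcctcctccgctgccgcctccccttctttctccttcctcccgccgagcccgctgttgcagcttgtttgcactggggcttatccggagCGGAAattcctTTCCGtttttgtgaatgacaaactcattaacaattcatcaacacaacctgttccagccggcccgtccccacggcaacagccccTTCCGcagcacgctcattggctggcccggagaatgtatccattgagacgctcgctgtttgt
SPRY2, chr13:80341127-80341376: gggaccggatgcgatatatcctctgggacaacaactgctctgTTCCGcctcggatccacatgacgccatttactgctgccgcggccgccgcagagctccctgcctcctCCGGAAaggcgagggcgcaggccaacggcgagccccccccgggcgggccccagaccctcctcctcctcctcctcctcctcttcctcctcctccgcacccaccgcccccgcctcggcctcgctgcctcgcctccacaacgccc

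DUSP6 held 3 matches to the ETS core, which begin 155, 144 and 61 bases before the start, the SPRY2 window shown held 2, 1 of them within CCGGAA, and the SPRY4 window held none of the 5 motifs. The other SPRY2 windows held no ETS core, and 1 of them held CAGGAA. The MEIS and AP-1 letters were not in the 3 windows shown, which leave out SPRY3 and ETV1. Across all 20 windows of the 9 feedback genes in the table, the MEIS letters were in 4 (20.0%), 1 each of SPRY1, SPRY3, SPRED2 and ETV1, and the AP-1 letters in 1 (5.0%), of SPRED3. The ETS core was in 6 (30.0%), CCGGAA in 5 (25.0%) and CAGGAA in 6 (30.0%), and windows of 1 gene can overlap. Of 35116 promoter windows of the same length, 30.3% held CGGAA, 14.5% CCGGAA, 24.1% CAGGAA, 6.57% TGANTCA and 13.0% TGACAG. G and C made up 65.6% of the SPRY4 window, 57.2% of that of DUSP6 and 70.4% of that of SPRY2, against a median of 58.0% over all windows. A match describes letters and not binding, and the lack of one speaks only for these 250 bases.

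The Sprouty family did not move as one. SPRY1 had 432 and 443 counts (33.69 and 34.51 FPKM), SPRY2 553 and 526, and SPRY3 155 and 126 (3.27 and 2.61 FPKM), and all 3 intervals included 1. SPRY4 counts per SPRY2 count went from 3.74 to 2.00, a change of 1.87-fold (1.62 to 2.16), so the difference between these relatives was larger than counting error. These 2 genes were paired with their values known. SPRY4 held 64.5% of all Sprouty counts in wild type (62.8 to 66.1), against 49.0% (46.8 to 51.1) in the other library. Per length, SPRY4 was the highest of the family in wild type, with 79.92 FPKM against 50.18 for SPRY2, and SPRY2 was the highest in the other library, with 46.88 against 39.83. The SPRED genes, whose proteins recruit neurofibromin to RAS, had intervals that included 1. SPRED1 had 670 and 723 counts (17.60 and 18.66 FPKM), SPRED2 673 and 670 (30.12 and 29.17) and SPRED3 55 and 65 (2.05 and 2.44). The interval of SPRED2 was 0.884 to 1.10 of wild type, and none of the 3 intervals reached the size of the SPRY4 difference.

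The phosphatases split in a like manner. DUSP4, a nuclear phosphatase of ERK and other MAP kinases (chromosome 8), had 287 and 293 counts, or 9.72 and 9.71 FPKM. DUSP6 counts per DUSP4 count went from 7.20 to 4.97, a 1.45-fold change (1.21 to 1.73), and DUSP5 counts per DUSP4 count from 1.11 to 0.741, or to 0.667 of wild type (0.522 to 0.851). The interval of DUSP6 per DUSP5 included 1 (1.04-fold, 0.858 to 1.25). SPRY4 was lower by more than DUSP6, since SPRY4 counts per DUSP6 count went from 1.001 to 0.721, a 1.39-fold change (1.26 to 1.54). These ratios are part of 15 pairs of genes, chosen with the values known, and describe the libraries only.

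The 3 ETS factors of the PEA3 group were lower by small amounts. ETV1 had 246 and 204 counts (6.96 and 5.69 FPKM) and was 1.22-fold lower (1.01 to 1.47), ETV4 had 495 and 430 (44.13 and 36.80 FPKM) and was 1.16-fold lower (1.02 to 1.33). ETV5 had 513 and 453 (23.93 and 20.75 FPKM) and was 1.14-fold lower (1.006 to 1.301). With DESeq2 size factors in place of TMM the intervals of ETV1 and ETV5 included 1 and that of ETV4 did not. ETV4 shares exon sequence on the other strand with DHX8, which had 233 and 297 counts.

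Over the 13 feedback genes, all with at least 50 counts, 6 had an interval below 1 (46.2%, against 16.7% of all genes at that depth), 0 above it (against 17.4%) and 7 an interval that included it. Of the 6, ETV1 and ETV5 had intervals that included 1 with DESeq2 size factors. As members, these 13 genes were chosen with earlier results known, and the shares only describe them. The median log2 ratio of the 13 was -0.19. Their counts summed to 8534 in wild type and, after scaling, to 6588.5 in the library labelled deleted, or 77.2% of wild type. Most of the difference came from 2 genes: the sum was lower by 1945.5 counts, and SPRY4 and DUSP6 together were lower by 1654.8. In FPKM the sum was 466.52 and 362.01.

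**Figure D4:**
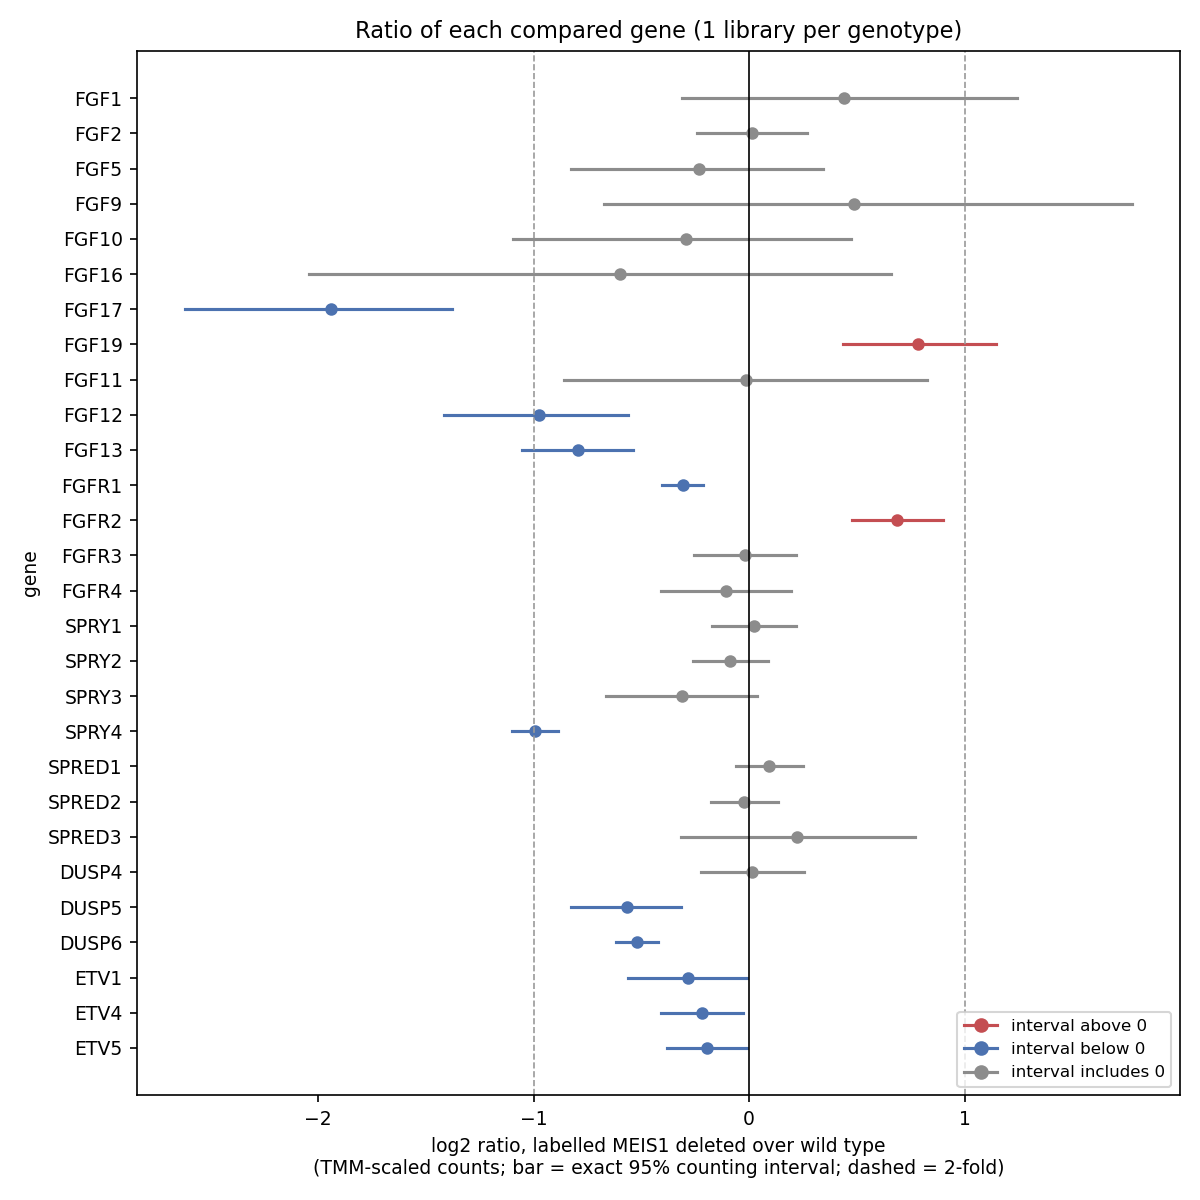
Log2 ratio of the library labelled MEIS1 deleted over wild type (x) for the 28 compared genes (y), with bars for the exact 95% counting interval, dashed lines at 2-fold and colours for intervals above, below or including 0. SPRY4, DUSP6 and DUSP5 lie clear of 0 on the left (-0.99, -0.52 and -0.57), the bars of their relatives SPRY1, SPRY2 and DUSP4 cross 0, and the bars of ETV1 and ETV5 end close to it.

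Among other genes of the pathway, 81 in 6 lists outside the 39, 71 were compared. An interval above 1 was found for 12 (16.9%, against 15.4% of all genes compared) and one below 1 for 16 (22.5%, against 14.7%). The share above 1 was near the background, and the share below 1 was larger than it. The lists were chosen with earlier results known and are given as a description. Among co-receptors and extracellular modulators, 7 of 11 were compared, and 3 were higher, 2 were lower and the interval of 2 included 1. These were 42.9% and 28.6% of only 7 genes, against 15.4% and 14.7% of all genes compared. The median log2 ratio of this list was 0.17, but -0.020 when genes of 1 count or more were kept and 0.074 at a minimum of 50. FGFBP3, a secreted FGF-binding protein, gave 85 and 225 counts, 2.60-fold higher (2.03 to 3.40). IL17RD, also called SEF, a membrane inhibitor of FGF signalling that is itself FGF-induced, gave 1327 and 797 counts, 1.68-fold lower (1.54 to 1.84). ANOS1, an extracellular modulator of FGFR1, was 1.38-fold lower (1.17 to 1.64), with 337 and 246 counts.

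Heparan sulfate, with which most secreted FGFs bind their receptors, is shaped by sulfotransferases and by the extracellular sulfatases SULF1 and SULF2, which remove 6-O-sulfate. Of 16 genes for its synthesis and editing 15 were compared. Of these, 3 were higher (20.0%, against 15.4% of all genes compared) and 4 lower (26.7%, against 14.7%). The interval of 8 included 1 (median -0.033). SULF1 gave 630 and 315 counts, 2.02-fold lower (1.76 to 2.32), while SULF2 gave 606 and 877 counts, 1.43-fold higher (1.29 to 1.59). HS6ST1, which adds 6-O-sulfate, gave 414 and 268 counts, 1.56-fold lower (1.33 to 1.83).

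Of 25 genes for adaptors and kinases from the receptor to ERK, all were compared. Of these, 4 were higher, 5 were lower and the interval of 16 included 1, with a median of 0.069. These shares (16.0% and 20.0%) were near those of all genes (15.4% and 14.7%). MAP2K1, which encodes MEK1, gave 348 and 234 counts, 1.501-fold lower (1.27 to 1.78). HRAS gave 74 and 119 counts, 1.58-fold higher (1.18 to 2.16), and the ERK-activated kinase gene RPS6KA3 gave 384 and 529 counts, 1.36-fold higher (1.19 to 1.56). Of 8 other dual-specificity phosphatases 6 were compared, and 5 had an interval that included 1 (median 0.016). DUSP10, a phosphatase of p38 and JNK, was the 1 that was lower (16.7%, against 14.7% of all genes). DUSP10 gave 98 and 55 counts, 1.79-fold lower (1.28 to 2.55), DUSP1 had 96 and 121, and DUSP8 had 42 and 53.

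Of 14 transcripts that respond to ERK outside the feedback loop, 11 were compared. Of these, 4 were lower (36.4%, against 14.7% of all genes), 2 were higher (18.2%, against 15.4%) and the interval of 5 included 1 (median -0.21). IER3, an early response gene, gave 529 and 262 counts, 2.04-fold lower (1.76 to 2.38), and FOS gave 67 and 33 counts, 2.02-fold lower (1.33 to 3.21). CCND1, which encodes cyclin D1, gave 2893 and 5248 counts, 1.795-fold higher (1.715 to 1.879), the opposite direction to SPRY4 and DUSP6. All 7 genes of the list of ERK-regulated repressors and ternary complex factors, which also holds ATXN1L and SRF, had intervals that included 1 (median -0.10). Among them were ERF with 476 and 430 counts, ELK1 with 186 and 152, and ELK4 with 301 and 342.

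**Figure D5:**
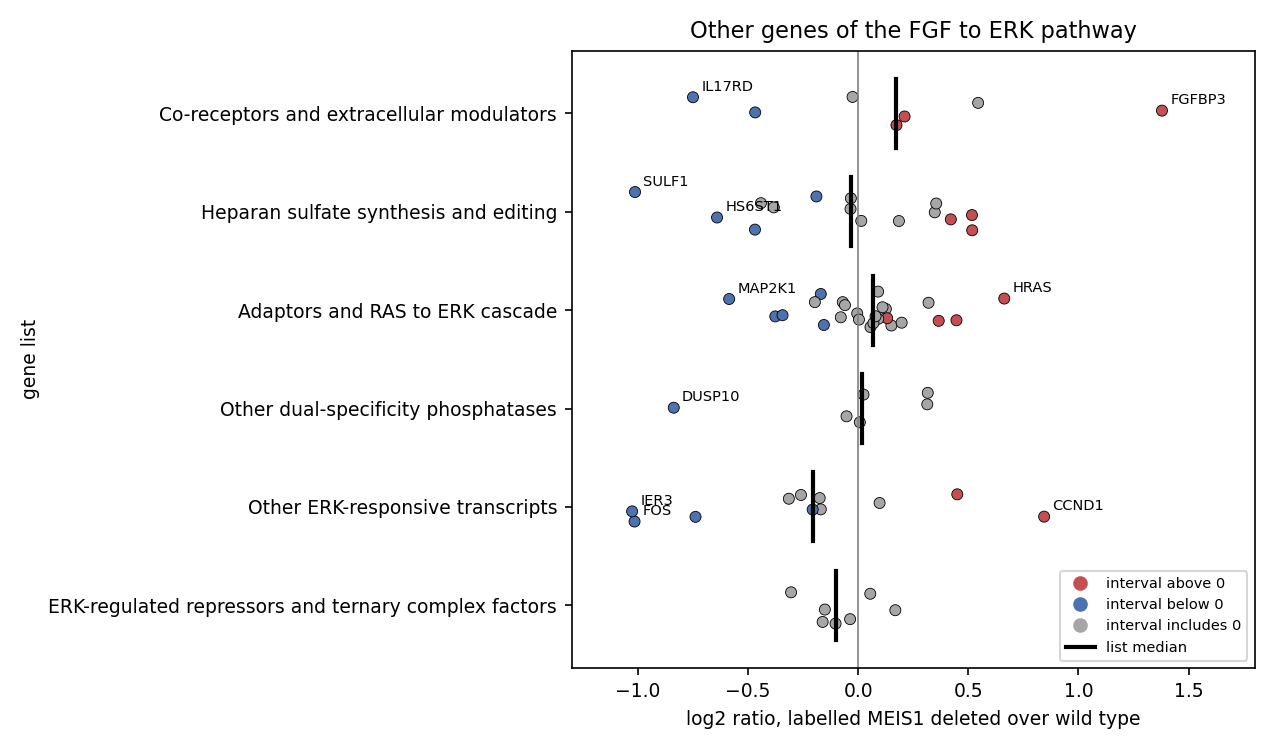
Log2 ratio of the library labelled MEIS1 deleted over wild type (x) for each compared gene of the 6 pathway lists outside the 39 genes (y, jittered within a list), with colours for counting intervals above, below or including 0 and a black bar at each list median. List medians lie between -0.21 and 0.17, and the points farthest out are FGFBP3 at 1.38, IER3 at -1.03, FOS at -1.01 and SULF1 at -1.01.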

How the data were processed

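There were 2 libraries, 1 per genotype, each made from 2 µg of total RNA; per the labels' protocols the kit was Illumina TruSeq RNA. The authors deposited expected counts (estimated counts that need not be whole) and FPKM values (scaled for length and depth) per gene, with a gene length, per the file headers. BWA, Bowtie, RSEM and build hg19 are named in the submitters' processing notes, without versions, while the series' design text names BWA with ANOVA and TopHat with Cufflinks. Which of these steps made the counts, FPKM and lengths is not given in the sources used here. A gene absent from 1 table was taken as 0 there. All 39 members were matched to NCBI gene numbers through RefSeq (GRCh38.p14), which also gave chromosomes and promoter windows.

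Expected counts were rounded to whole numbers and scaled by TMM (edgeR 4.0.16, R 4.3.3). Log2 ratios of single genes used a pseudocount of 1. Their intervals and those of shares were exact Clopper-Pearson 95% intervals, and genes with at least 10 counts in 1 library were compared. Changes in the counts of 1 gene per count of another were conditional odds ratios of unscaled counts. These had exact conditional 95% intervals and no pseudocount. With no replicates no model was fitted. The computation was tested on simulated data. Counts over 9 of the 28 members compared were not whole within 0.005. From each pathway list, up to 3 genes with at least 50 counts and the largest ratios were named, and all members were accounted for. Promoters were to be those of up to 5 feedback genes with the largest ratios. Of these, SPRY4 and DUSP6 are shown, DUSP5 had no entry, and SPRY3 and ETV1 are not shown though they had entries. SPRY2 is shown outside that rule. Members and lists were chosen with earlier results of these data known. Scaling, pseudocount, rounding, unit, count minimum and fold were varied.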

Additional observations from a re-analysis of the deposited data

How the results depend on the processing

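The number of members at least 2-fold lower, 1 by the main settings, was 2 with total-count scaling, where SPRY4 passed 2-fold, 2 from FPKM with a pseudocount of 0.1, and 4 at 1.5-fold, where 2 were higher in place of 0. Across all genes, 417 higher and 424 lower became 182 and 183 from FPKM with a pseudocount of 1, 161 and 171 with a minimum of 50 counts, where fewer genes were compared, and 827 and 893 at 1.5-fold. From FPKM with a pseudocount of 0.1 they were 483 and 490, so the FPKM counts depended on the pseudocount. The cause of the difference from the main settings was not tested further. The count of members with an interval below 1 was 10, or 8 with DESeq2 size factors, and FPKM gives no counting interval. The member median ranged from -0.19 (minimum of 50 counts) to -0.097 (minimum of 1 count). All 322 values of 46 named genes stayed within their main counting intervals, and of 117 list medians 116 stayed within the median limits of their members' intervals; that of the FGF homologous factors was -0.40 with genes of 1 count or more, where FGF14 entered. Among the 116, the median of the co-receptors changed sign, from 0.17 to -0.020 with genes of 1 count or more, and was 0.074 at a minimum of 50 counts. No replicate could be left out. No paired analysis was possible because each genotype had 1 library.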

Other observations

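The deposited tables give a gene length that differs between the libraries for some genes with more than 1 transcript; how it was made is not given in the sources used here. FGF13 had a mean length of 2298.82 bases in wild type, against 2416.87 in the library labelled deleted, 5.14% longer, and FGFR2 had 3613.67 and 3790.03, 4.88% longer. Among 4776 genes with more than 1 listed transcript and at least 50 counts in both libraries, the median absolute change was 0.446%, and 6.32% and 6.80% of genes changed by as much as FGF13 and FGFR2. The FPKM of FGFR2 differed from wild type by 52.1% and its scaled count by 60.9%. For FGF13 these differences were -45.7% and -42.3%. ETV4 was 2.27% longer, and FGFR1 and SPRY4 changed by less than the median. The tables name no level per transcript, and no interval can be given for these lengths.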
